A study of Mus musculus with 4 samples.

Results

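The genes described here encode the proteins of the mitochondrial ribosome. They are the protein-coding rows of the deposited count table whose mouse symbol starts with Mrpl or Mrps followed by a digit, which gave 78 genes of 55487 rows, 49 with a large subunit symbol (Mrpl) and 29 with a small subunit symbol (Mrps). Poly(A) RNA was sequenced from myeloid cells of mouse liver, sorted as CD45+ and CD11b+ and free of CD3 and CD11c. The groups were LysM-Cre IL10R wt/wt (n = 2 libraries) and LysM-Cre IL10R fl/fl (n = 2 libraries), so that both carry the Cre recombinase and only the second carries the floxed receptor gene of interleukin-10 (IL-10). LysM-Cre is expressed from the lysozyme 2 locus and acts in macrophages, monocytes and granulocytes. Age, sex, strain background and treatment are not in the labels, nor is it stated that each library is a different animal. The p-values thus measure only the spread between these libraries, which may be technical in wt/wt. By the RNA Xist, described below, fl/fl 1 and fl/fl 2 appear to differ in sex, so their spread does not appear to be only technical.

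Mitochondria keep a small genome whose messenger RNAs encode core subunits of the respiratory chain and of ATP synthase. These messages are translated inside the organelle by a ribosome of its own, whose RNAs come from the mitochondrial genome and whose proteins are all encoded in the nucleus, made in the cytosol and imported. The small subunit binds the messenger RNA and decodes it, and the large subunit forms the peptide bond and holds the exit tunnel at the inner membrane. Many of its proteins descend from bacterial ribosomal proteins, and others are found only in mitochondria. The symbols do not fully follow the structure: the proteins of Mrps18a and Mrps30 sit in the large subunit, and that of Mrps36 is now assigned to the oxoglutarate dehydrogenase complex of the citric acid cycle. The subunits Dap3, Ptcd3, Chchd1, Aurkaip1 and Gadd45gip1 carry other symbols and were treated as a separate list.

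Promoters of the group are shown here because genes of the mitochondrial ribosome are known targets of the nuclear respiratory factors, NRF-1 and the ETS factor GABP, and of YY1. The RefSeq promoter table (GRCm38.p6) held 75 windows of 300 bases, 250 before and 50 after a start, for 69 of the 78 genes. Searched on both strands, the ETS letters CCGGAAG were in 34.7% of these windows, against 8.86% of all 32851 windows and 17.9% of the windows of tested protein-coding genes. The NRF-1 letters, GCGCA and GCGC with any base between them, were in 17.3%, against 4.60% and 10.0%, and the YY1 letters AAGATGGC in 16.0%, against 2.75% and 4.55%. The E-box CACGTG was in 9.33%, against 7.15% of all windows and 9.96% of those of tested protein-coding genes, and CCAAT in 30 of the 75 windows, against 37.4% and 38.0%. Matches of different motifs may overlap, and a match of letters is not a binding site.

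The stretches below end just before the RefSeq start, contain no annotated exon, come from the RefSeq table and are given 5′ to 3′ on the gene's strand, with motif letters in capitals. They were picked from 8 members that held ETS, NRF-1 or YY1 letters, among 23 with an exon-free stretch of at least 50 bases, and each lies directly before the annotated 5′ end of its gene. Mrpl58 (chr11:115403632-115403751, plus strand) is the member with the smallest p-value. Mrpl43 (chr19:45006443-45006557, minus strand) has a repeated ETS motif, Mrpl45 (chr11:97315596-97315715, plus strand) a repeated NRF-1 motif, and Mrpl52 (chr14:54426789-54426908, plus strand) has the ETS letters at a fold change near 0.
Mrpl58: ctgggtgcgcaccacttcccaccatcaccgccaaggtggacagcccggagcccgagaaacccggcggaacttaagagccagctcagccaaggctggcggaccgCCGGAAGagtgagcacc
Mrpl43: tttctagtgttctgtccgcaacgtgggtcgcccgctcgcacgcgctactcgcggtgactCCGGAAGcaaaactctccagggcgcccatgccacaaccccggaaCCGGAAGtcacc
Mrpl45: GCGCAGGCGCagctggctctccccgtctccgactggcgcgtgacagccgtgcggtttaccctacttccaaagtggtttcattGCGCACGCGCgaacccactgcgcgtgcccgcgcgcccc
Mrpl52: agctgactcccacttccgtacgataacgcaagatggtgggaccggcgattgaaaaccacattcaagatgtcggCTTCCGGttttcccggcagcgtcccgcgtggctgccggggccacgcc

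Total counts were 17154042 to 26441014 per library, and 37040 to 47389 of them fell on the members. Il10ra, the ligand-binding chain of the IL-10 receptor and the gene taken as floxed, held 1111 and 993 CPM (counts scaled to library size by TMM) in wt/wt, against 69.3 and 14.8 CPM in fl/fl, which follows the labels. Ptprc (CD45) and Itgam (CD11b) were at 368 CPM or more in every library, and Cd3e at 0.0737 CPM or less, whereas Itgax, the gene of CD11c, which the sort excluded on the surface, held 158 and 134 CPM in the wt/wt libraries, against 24.6 and 47.1 CPM in the fl/fl libraries. Lyz2, whose locus drives the Cre, held 18.4 and 23.3 CPM in the wt/wt libraries, against 26.4 and 80.4 CPM in the fl/fl libraries. Library fl/fl 2 stood apart by its 4298 counts of Xist, the RNA of X inactivation, against 0 in the others. By this RNA, sex appears to differ within fl/fl and to be unbalanced between the groups. Its part in the values was not tested. A count of 0 allows up to 3 counts, 0.111 to 0.175 CPM, for counting error only.

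Most members had a positive log2 fold change in fl/fl, and no single member passed the test. Of the 78, 77 entered the test (edgeR quasi-likelihood, Benjamini-Hochberg over 13496 genes, adjusted p under 0.05), and 0 were called, where 5.85% of all tested genes were (2.69% higher and 3.16% lower in fl/fl). At an unadjusted p under 0.05 there were 18 members, all with the higher value in fl/fl, against 22.5% of all tested genes in either direction and 11.8% with the higher value in fl/fl (10.7% with the lower). DESeq2 called 2 members as higher, where it called 5.21% of all genes in that direction, and limma-voom called 0. Members were also called as higher without a filter on low counts (6, beside 4.48% of all genes), with the replicate number as a block (2, beside 4.46%), without fl/fl 1 (2, beside 2.38%) and without fl/fl 2 (1, beside 5.5%). A positive log2 fold change (fl/fl over wt/wt) was found in 67 of the 77 members, 87.0%, beside 51.9% of all tested genes. With 1 library left out it was found in 65 (without wt/wt 1), 62 (without wt/wt 2), 58 (without fl/fl 1) and 69 (without fl/fl 2) of the 77. The median was 0.25 for 48 large subunit genes and 0.34 for 29 small subunit genes, beside 0.02 for all tested genes. In bulk RNA, a change in the share of a cell type and a change of RNA per cell cannot be told apart.

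**Figure D1:**
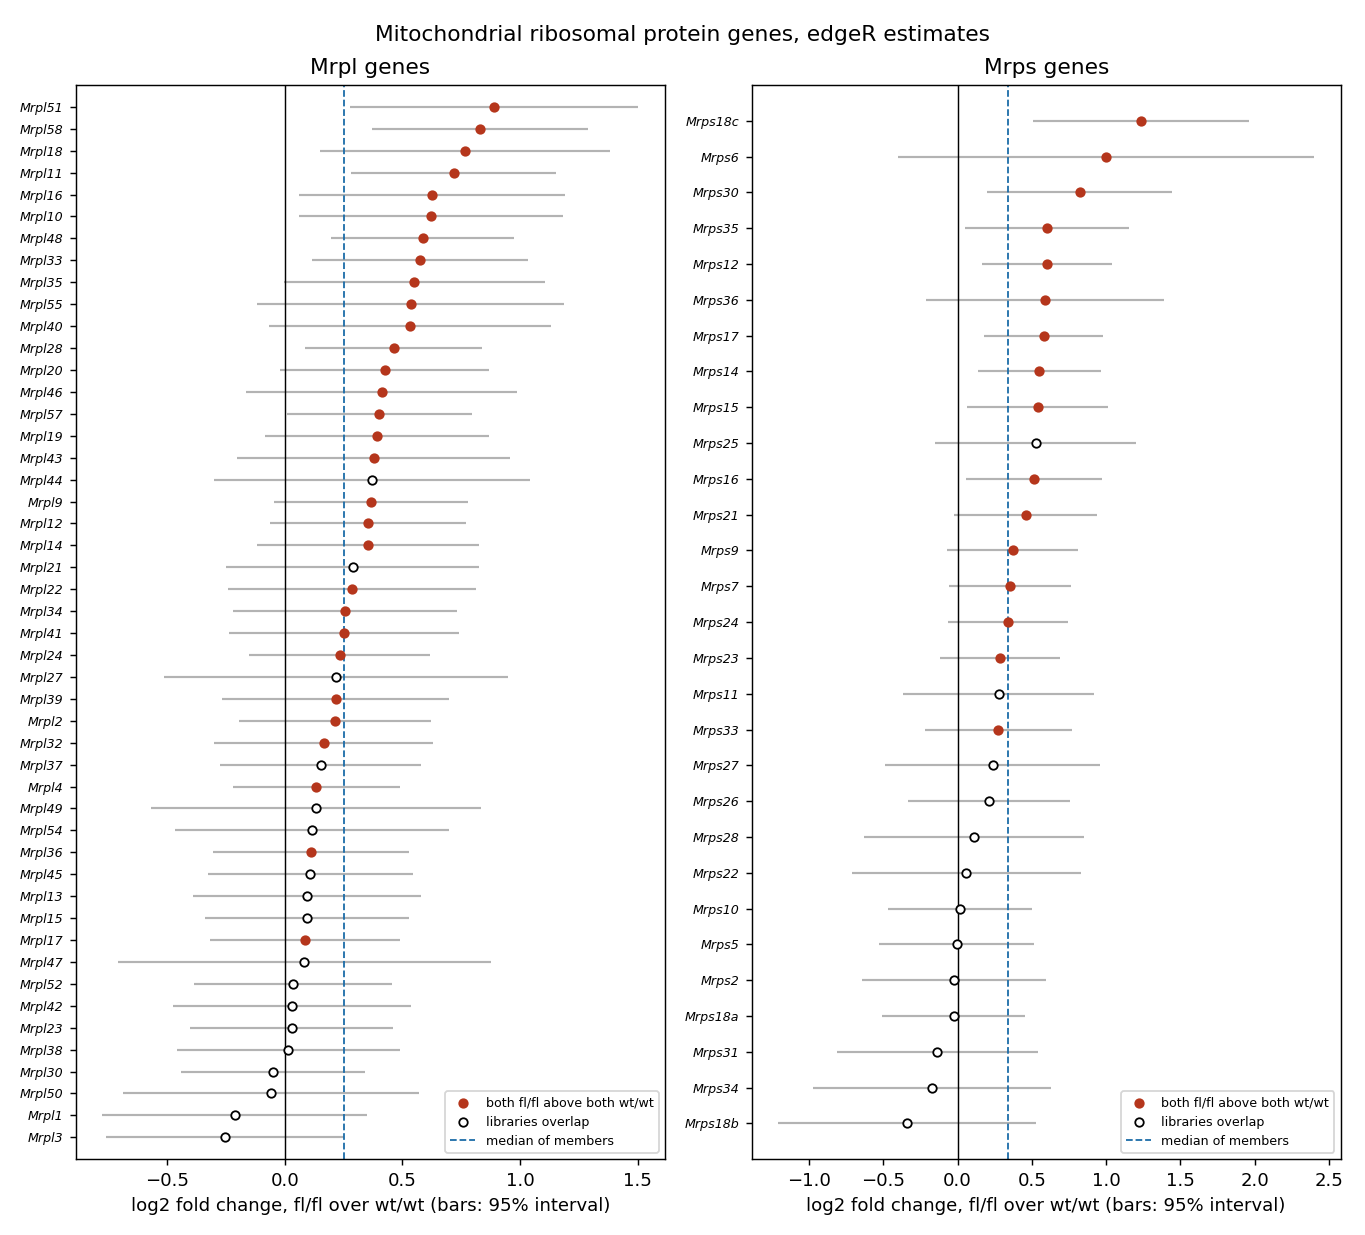
Log2 fold change (x axis, fl/fl over wt/wt) of the 48 tested Mrpl genes (left) and 29 Mrps genes (right), with 95% intervals as bars and the median of each subunit dashed. Filled points are the 46 members with both fl/fl libraries above both wt/wt libraries; no member has both below.

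Library by library, the members lay as follows. Both fl/fl libraries lay above both wt/wt libraries in 30 of 48 large subunit genes and in 16 of 29 small subunit genes, together 59.7%, where 28.1% of all tested genes did. Both fl/fl libraries lay below in 0 members, where 26.3% of all tested genes did. The summed level of the large subunit genes was 1209 and 1173 CPM in wt/wt, against 1471 and 1399 CPM in fl/fl, a ratio of 1.2 between the group means. That of the small subunit genes was 540 and 573 CPM in wt/wt, against 721 and 715 CPM in fl/fl, a ratio of 1.29. The 2 fl/fl libraries were thus close to each other and apart from wt/wt in both sums. The ratio of the large to the small sum was 2.24 and 2.05 for the wt/wt libraries, against 2.04 and 1.96 for those of fl/fl, so that wt/wt 2 and fl/fl 1 were nearly equal.

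In the large subunit, Mrpl51, a protein found only in mitochondrial ribosomes, held 22.6 and 15.5 CPM in the wt/wt libraries, against 40.5 and 30.2 CPM in the fl/fl libraries. Its groups did not overlap, and it had the most positive value of the subunit (log2 fold change 0.89 ± 0.26, SE; adjusted p = 0.0988, edgeR). Mrpl58, which retains the peptidyl-tRNA hydrolase activity of a release factor and can free stalled chains, held 19.2 and 17.3 CPM in the wt/wt libraries, against 30.1 and 34.7 CPM in the fl/fl libraries. At 0.83 ± 0.19 (SE) it had the smallest adjusted p of all members, 0.0577 by edgeR, with a 95% interval of 0.37 to 1.29. DESeq2 called both genes (adjusted p = 0.0448 for Mrpl51 and 0.0341 for Mrpl58). The range of adjusted p over the alternatives was 0.00513 to 0.358 for Mrpl51 and 0.0136 to 0.323 for Mrpl58.

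Mrpl11, the homologue of bacterial L11 at the base of the stalk where translation factors bind, held 18.6 and 20.5 CPM in the wt/wt libraries, against 32.3 and 32.0 CPM in the fl/fl libraries (log2 fold change 0.72 ± 0.18, SE; adjusted p = 0.0741, edgeR). The fl/fl libraries were nearly equal and both above wt/wt. Mrpl18, the homologue of bacterial L18, held 11.99 and 16.7 CPM in the wt/wt libraries, against 27.8 and 21.1 CPM in the fl/fl libraries (0.77 ± 0.26, SE; adjusted p = 0.143, edgeR). Mrpl16, the homologue of L16 near the peptidyl transferase centre, held 11.3 and 15.3 CPM in the wt/wt libraries, against 20.2 and 20.8 CPM in the fl/fl libraries (0.63 ± 0.24, SE; adjusted p = 0.184, edgeR). For these genes too the groups did not overlap, and wt/wt 1 was the lowest library in each of the 3. The value of Mrpl18 ranged from 0.50, with wt/wt 1 left out, to 1.03, with wt/wt 2 left out. Mrpl48 held 33.7 and 34.2 CPM in the wt/wt libraries, against 48.7 and 53.3 CPM in the fl/fl libraries, apart from each other (adjusted p = 0.0896, edgeR).

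At the other end, Mrpl3, the homologue of bacterial L3, held 33.5 and 31.3 CPM in the wt/wt libraries, against 31.4 and 22.9 CPM in the fl/fl libraries (log2 fold change −0.25, 95% interval −0.76 to 0.25), and only fl/fl 2 stood apart. Mrpl1, whose bacterial homologue forms the stalk beside the exit site of tRNA, held 19.99 and 17.6 CPM in the wt/wt libraries, against 13.9 and 18.5 CPM in the fl/fl libraries (−0.21, interval −0.77 to 0.35). Mrpl50, Mrpl30 and Mrpl38 lay at −0.06, −0.05 and 0.02. The groups overlapped in each of these 5 genes. The signs of Mrpl50, Mrpl30 and Mrpl38 turned under some alternatives.

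**Figure D2:**
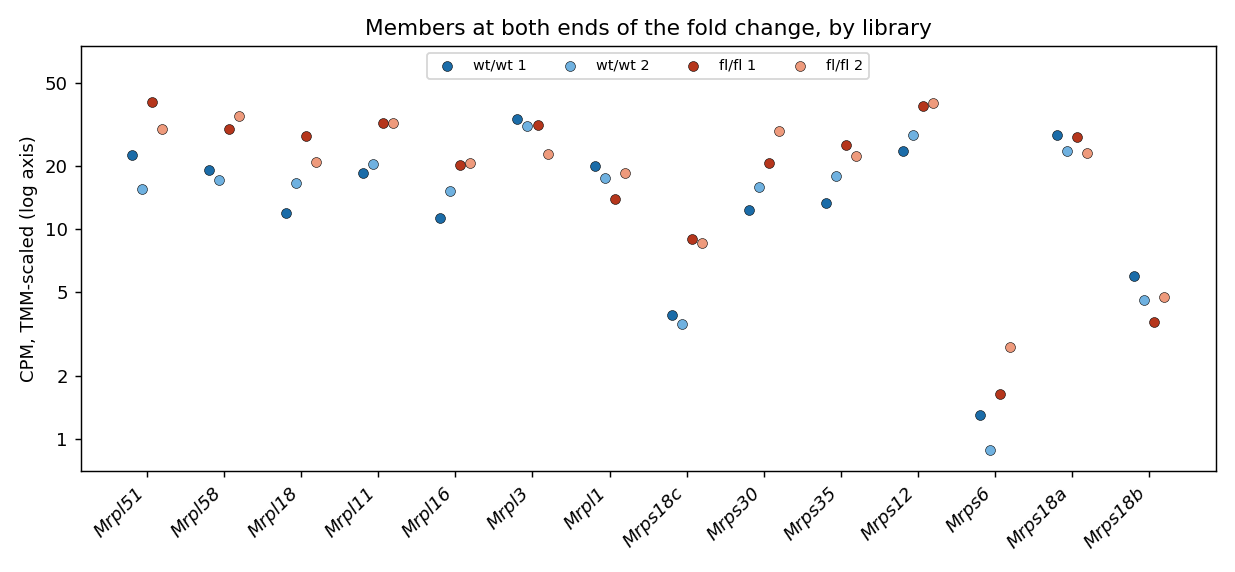
Level in CPM (log axis) of 14 members at both ends of the fold change, 1 point per library. In Mrpl51, Mrpl58, Mrpl18, Mrpl11, Mrpl16, Mrps18c, Mrps30, Mrps35, Mrps12 and Mrps6 both fl/fl points lie above both wt/wt points; in Mrpl3, Mrpl1, Mrps18a and Mrps18b they overlap.

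Among genes with small subunit symbols, the 3 paralogs of bacterial S18 differed in their values. The protein of Mrps18a sits in the large subunit. Mrps18c, the member that takes the place of S18 itself, held 3.91 and 3.54 CPM in the wt/wt libraries, against 8.97 and 8.56 CPM in the fl/fl libraries, from 87 and 96 against 154 and 150 counts. This was the most positive value of all members (log2 fold change 1.23 ± 0.31, SE; adjusted p = 0.0683, edgeR; 95% interval 0.51 to 1.96), and it stayed between 1.16 and 1.28 with each library left out in turn. Mrps18a held 28.2 and 23.7 CPM in the wt/wt libraries, against 27.7 and 23.2 CPM in the fl/fl libraries (−0.03, interval −0.51 to 0.46). Mrps18b, which is a separate small subunit protein in the structure, held 5.97 and 4.60 CPM in the wt/wt libraries, against 3.61 and 4.74 CPM in the fl/fl libraries (−0.34, interval −1.21 to 0.53), the most negative value of all members. The difference between paralogs was not tested. Of the exonic length of Mrps18c, 23.2% is shared with another gene on its strand, and of Mrps18b, 30.5% with a gene on the opposite strand.

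Mrps30, whose protein is part of the large subunit despite its symbol, held 12.4 and 16.0 CPM in the wt/wt libraries, against 20.6 and 29.5 CPM in the fl/fl libraries (log2 fold change 0.82 ± 0.26, SE; adjusted p = 0.122, edgeR). Mrps35, a small subunit protein specific to mitochondria, held 13.3 and 17.98 CPM in the wt/wt libraries, against 25.2 and 22.4 CPM in the fl/fl libraries (0.60 ± 0.23, SE; adjusted p = 0.186, edgeR). Mrps12, the homologue of bacterial S12 at the decoding centre, held 23.6 and 28.3 CPM in the wt/wt libraries, against 38.9 and 39.9 CPM in the fl/fl libraries (0.60 ± 0.18, SE; adjusted p = 0.111, edgeR). The groups were apart in all 3. Mrps30 was called without fl/fl 1 (adjusted p = 0.0450, edgeR, at 1.02) and lay at 0.54 without fl/fl 2, over a range of adjusted p from 0.0268 to 0.601.

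Mrps6, the homologue of bacterial S6, was the least expressed tested member and its value is imprecise. It held 1.30 and 0.884 CPM in the wt/wt libraries, against 1.63 and 2.74 CPM in the fl/fl libraries, from 24 to 48 counts (log2 fold change 1.00, 95% interval −0.40 to 2.40). Mrps36, of the oxoglutarate dehydrogenase complex, held 6.60 and 6.45 CPM in the wt/wt libraries, against 12.3 and 7.30 CPM in the fl/fl libraries (0.59, interval −0.22 to 1.39), and lay at 0.13 without fl/fl 1. Mrps34, Mrps31 and Mrps2 lay at −0.17, −0.14 and −0.02, each with overlapping groups. Mrps25 and Mrps34 share 69.8% and 63.4% of their exonic length with a gene on the opposite strand. Mrps34 and Mrps6 share 37.0% and 19.9% with other genes on the same strand. The strand setting of the counting and its treatment of shared reads are not given, so the values of Mrps25, Mrps34 and Mrps6 are uncertain. The same limit holds for Mrps18c, Mrps18b and the others of the 18 members with over 10% of their exonic length shared.

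Mrpl53 was listed with 0 counts in all 4 libraries and was not tested. It shares 88.0% of its exonic length with Gm42688, a gene on the same strand with 0 to 4 counts per library. How the counting treated reads on both genes is not given, so the 0 does not show that Mrpl53 was silent.

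Levels of different genes are compared per kilobase of exon (CPM per kb, mean of the 4 libraries, length from the union of GENCODE exons). They ranged from 1.07 to 68.0 CPM per kb, a 63.6-fold span. The highest levels were those of Mrps21, the homologue of bacterial S21 (68.0), Mrpl52 (61.1), Mrpl54 (43.9), Mrpl34 (43.2) and Mrpl2 (35.9). The lowest were Mrps6 (1.07), Mrpl47 (1.43) and Mrps22 (1.58), with Mrps18b at 2.26. Large subunit genes had a median of 9.07 and small subunit genes of 5.92 CPM per kb. Of those at the top, Mrps21 held 48.2 and 36.4 CPM in the wt/wt libraries, against 53.5 and 62.9 CPM in the fl/fl libraries (log2 fold change 0.46, 95% interval −0.02 to 0.94). Mrps23 and Mrps24, also high in the small subunit (28.6 and 24.8 CPM per kb), lay at 0.28 and 0.34, and Mrpl33, the second lowest of the large subunit (3.19 CPM per kb), at 0.58. Mrpl52 held 74.2 and 59.7 CPM in the wt/wt libraries, against 71.8 and 65.3 CPM in the fl/fl libraries, which overlap (0.03, interval −0.39 to 0.46). The union counts long rare isoforms, so a gene with such an isoform has a level per length that is too low.

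**Figure D3:**
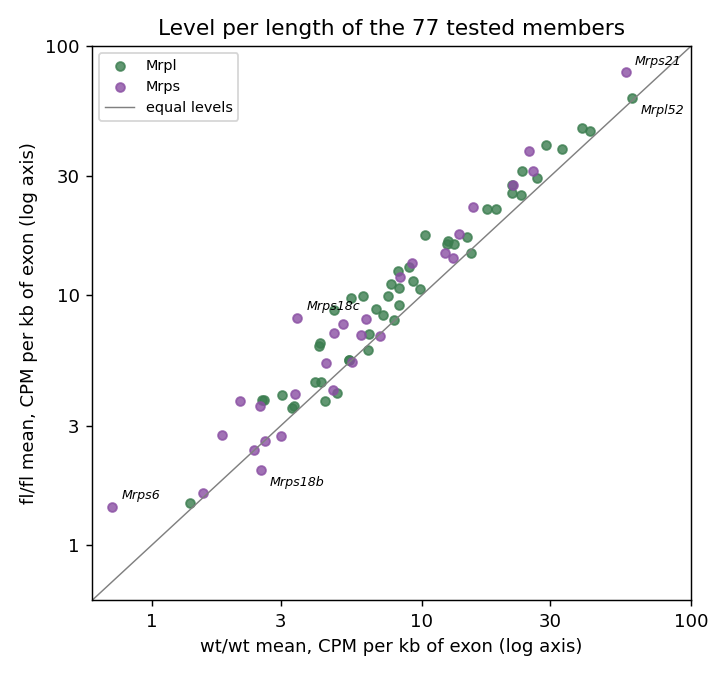
Mean level per kilobase of exon in wt/wt (x axis) and fl/fl (y axis), both on log axes, of the 77 tested members, with the line of equal levels. Most points lie just above the line at every level between Mrps6 (1.07 CPM per kb over all libraries) and Mrps21 (68.0), and Mrps18c is farthest above it.

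Members with a bacterial homologue and those specific to mitochondria were set side by side, by structure and not by symbol. In the large subunit, 27 of 30 tested homologues had a positive log2 fold change (median 0.27), and 18 of 20 tested mitochondria-specific members did (median 0.23). In the small subunit, 14 of 16 homologues were positive (median 0.41) and 7 of 10 mitochondria-specific members (median 0.22). The groups were apart with fl/fl above in 21, 10, 11 and 3 of them, in that order. Among all tested genes 28.1% were apart in this way, close to the share of the 10 mitochondria-specific small subunit members. Whether these classes differ was not tested. Among the subunits with other symbols, Aurkaip1 held 77.3 and 87.3 CPM in the wt/wt libraries, against 122 and 115 CPM in the fl/fl libraries (0.53, adjusted p = 0.105, edgeR). Chchd1 and Dap3, a GTP-binding subunit first known from cell death, lay at 0.52 and 0.39, Ptcd3 at −0.02, and Gadd45gip1 at −1.08 from at most 1.57 CPM. By edgeR 0 of these 5 were called, with 3 at an unadjusted p under 0.05.

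The members were spread over 17 chromosomes, with the most on chromosome 11 (11 genes). A protein-coding neighbour that starts within 1000 bases upstream on the opposite strand was found for 18 of 77 tested members, 23.4%, against 10.7% of tested protein-coding genes. Partners include Fau with Mrpl49 (59 bases apart) and the mitochondrial seryl-tRNA synthetase gene Sars2 with Mrps12 (172 bases). Of 17 tested partners, 2 passed: Ncapd2, a condensin subunit needed for mitotic chromosomes, beside Mrpl51 (log2 fold change 2.62, adjusted p = 0.0288, edgeR; 100 bases), and Ska3, of the spindle and kinetochore complex, beside Mrpl57 (2.76, adjusted p = 0.0361, edgeR; 49 bases). The share is 11.8% of partners, beside 5.85% of all tested genes. Mrpl57 itself held 38.0 and 36.0 CPM in the wt/wt libraries, against 51.4 and 46.3 CPM in the fl/fl libraries (0.40, adjusted p = 0.214, edgeR). Both partners were named after their values were seen.

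Fold changes were also set beside the promoter letters. The median log2 fold change was 0.29 for 25 members with the ETS letters in a window and 0.35 for 43 without, 0.35 for 13 with and 0.29 for 55 without the NRF-1 letters, and 0.20 for 12 with and 0.36 for 56 without the YY1 letters. For the E-box it was 0.21 for 5 members with and 0.34 for 63 without, and for CCAAT 0.31 for 26 with and 0.31 for 42 without. These differences were not tested. Of the promoters printed above, Mrpl58 lay at 0.83, Mrpl43 at 0.38, Mrpl45 at 0.11 and Mrpl52 at 0.03.

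Other lists of mitochondrial gene expression had medians closer to 0; differences between lists were not tested. Of 17 tested translation factors, 26 ribosome assembly and rRNA modification factors and 17 mitochondrial tRNA synthetases, 0 were called by edgeR, DESeq2 or limma-voom, with 0, 2 and 3 at an unadjusted p under 0.05 and medians of 0.12, 0.12 and 0.08. Single libraries moved these medians: with 1 left out they ranged from −0.01 (without fl/fl 1) to 0.20 (without wt/wt 2) for translation factors, from 0.03 (without fl/fl 2) to 0.17 (without wt/wt 2) for assembly factors, and from −0.01 (without wt/wt 1) to 0.06 (without fl/fl 1) for synthetases. Tufm, the elongation factor Tu, held 35.8 and 43.2 CPM in the wt/wt libraries, against 49.4 and 49.4 CPM in the fl/fl libraries (log2 fold change 0.32). Gfm2, the factor that helps split the ribosome after termination, held 26.01 and 27.6 CPM in the wt/wt libraries, against 18.6 and 21.3 CPM in the fl/fl libraries (−0.42), and Taco1, a translational activator of cytochrome c oxidase, lay at 0.55. The rRNA methyltransferase gene Nsun4 and the synthetase gene Aars2 lay at −0.57 and −0.60, opposite to Mtg1 (0.61), a GTPase of large subunit assembly, Malsu1 (0.50), which keeps the subunits apart during assembly, and the synthetase genes Fars2 (0.63) and Sars2 (0.49). Genes for transcription and upkeep of mitochondrial DNA had a median of −0.15 over 9 genes. Tfam, the packaging factor of that DNA, lay at 0.39, and Polg2 and Tefm, of replication and transcription, at −0.46 and −0.65. With 1 library left out, the median ranged from −0.26 (without fl/fl 2) to 0.0029 (without fl/fl 1), and was −0.01 without wt/wt 1. Of these 9 genes, 0 were called by edgeR, DESeq2 or limma-voom (0 at an unadjusted p under 0.05). Import and protein quality genes had a median of −0.03 over 18 genes, with Tomm22, a receptor of the outer membrane, at 0.53 (adjusted p = 0.0933, edgeR), and the receptor gene Tomm20 and the protease gene Lonp1 at −0.32 and −0.34. Of these 0 were called by the same tools, with 1 at an unadjusted p under 0.05.

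The sign of the messages that the mitochondrial ribosome translates rested on 1 library. Of the 13 mitochondrially encoded mRNAs, 10 were tested, 8 had a negative log2 fold change and 0 were called by edgeR, DESeq2 or limma-voom (0 at an unadjusted p under 0.05), with a median of −0.19. Without wt/wt 1 the median was 0.0112 and 7 of the 10 were positive, and without wt/wt 2 it was −0.36 and 0 were positive. Their summed level was 8714 and 6373 CPM in wt/wt, against 5853 and 6714 CPM in fl/fl, which overlap. mt-Co1, a core subunit of cytochrome c oxidase, held 5529 and 4061 CPM in the wt/wt libraries, against 3742 and 4072 CPM in the fl/fl libraries (−0.30, adjusted p = 0.470, edgeR), and mt-Nd5 and mt-Nd2, of complex I, lay at −0.39 and −0.30.

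Among known regulators, Myc, a factor that promotes growth and ribosome production, fell in fl/fl. It held 29.8 and 29.4 CPM in the wt/wt libraries, against 11.4 and 8.10 CPM in the fl/fl libraries (log2 fold change −1.61 ± 0.24, SE; adjusted p = 0.0193, edgeR). It was the 1 gene called by edgeR of the 9 tested regulators (DESeq2 called 2), was lower in each fl/fl library than in either wt/wt library, and lost its call without wt/wt 1 (adjusted p = 0.179) or wt/wt 2 (0.119) at values of −1.64 and −1.61. Pprc1, a coactivator of nuclear respiratory factors, held 43.4 and 33.9 CPM in the wt/wt libraries, against 21.3 and 24.5 CPM in the fl/fl libraries (−0.75, adjusted p = 0.0847, edgeR). Max, the partner of Myc, lay at 0.51 (adjusted p = 0.157, edgeR).

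The nuclear genes of the respiratory chain and ATP synthase, assembly factors included, and the cytosolic ribosomal proteins also had mostly positive values. Of 97 tested respiratory chain genes, 5 rose and 0 fell, where 2.69% of all tested genes rose and 3.16% fell. A positive log2 fold change was found in 90 of the 97, and the median was 0.38. These 5 calls, like every edgeR call, need both wt/wt libraries. With 1 library left out, the median ranged from 0.32 (without fl/fl 1) to 0.41 (without fl/fl 2). Atp5k, a subunit of ATP synthase, held 14.0 and 14.6 CPM in the wt/wt libraries, against 29.2 and 29.3 CPM in the fl/fl libraries (log2 fold change 1.03, adjusted p = 0.0306, edgeR), and Ndufa4 and Ndufb11 rose by 0.80 each. Of 87 cytosolic ribosomal protein genes, 0 were called (7 at an unadjusted p under 0.05; DESeq2 called 1, limma-voom 0), 77 were positive and the median was 0.18 (0.10 with wt/wt 2 left out and 0.27 with wt/wt 1 left out). Rpsa, Rps27l and Rps9 lay at 0.57, 0.55 and 0.46. The summed level in fl/fl over wt/wt was 1.3 for the respiratory chain, 1.16 for the cytosolic ribosome and 1.23 for the members, with no test of the difference between lists.

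**Figure D4:**
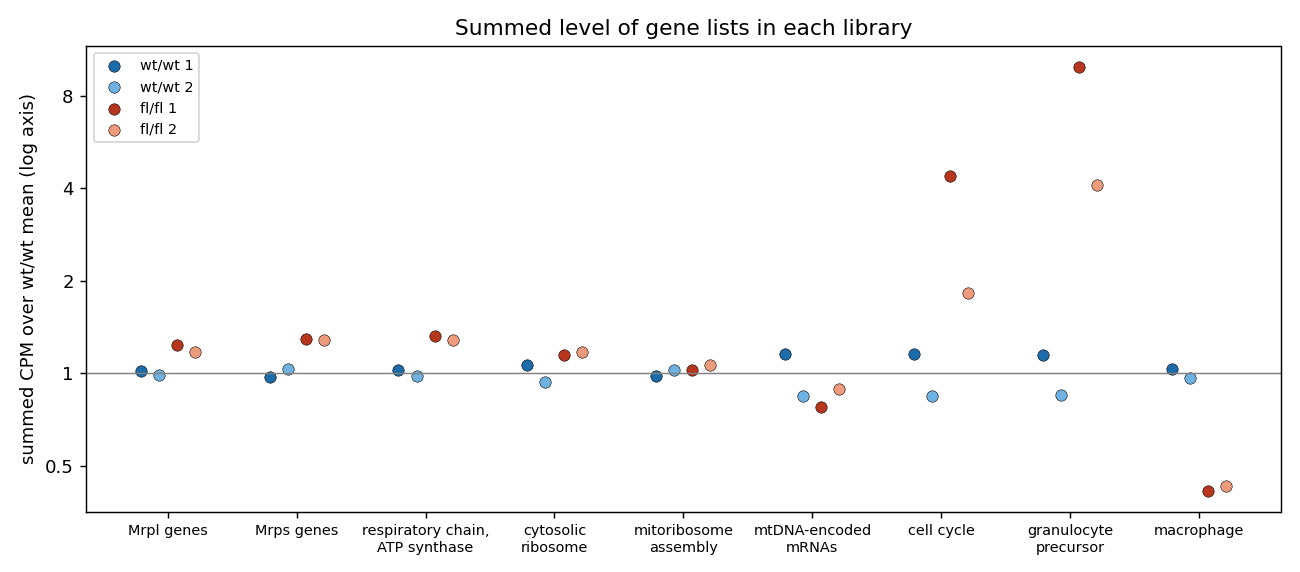
Summed CPM of each gene list in each library, divided by the mean of the wt/wt libraries (log axis), 1 point per library. The Mrpl, Mrps and macrophage sums are at close values in both fl/fl libraries. The cell cycle and granulocyte precursor sums in fl/fl 1 are 2.39 and 2.41 times those in fl/fl 2.

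Cell type markers differed in the same libraries. The edgeR calls named here and those of the other lists need both wt/wt libraries. A fit with 1 wt/wt library takes its spread from the fl/fl libraries alone, so a lost call there does not show a changed value. Of 12 tested granulocyte precursor markers 10 rose and 0 fell, with summed levels of 1804 to 2436 CPM in wt/wt and 8712 to 21030 CPM in fl/fl. Among the most expressed, Ngp rose by 3.08 and Chil3 lay at 2.33 (adjusted p = 0.0865, edgeR) on the log2 scale. Of 13 mature neutrophil markers 9 rose (2677 to 3509 against 12690 to 31390 CPM), and of 18 cell cycle genes 11 rose (277 to 380 against 602 to 1438 CPM). The mature neutrophil markers S100a9 and S100a8 rose by 3.10 and 3.54 and the cell cycle gene Mki67 by 2.68, whereas Pcna lay at 0.02. Of 10 tested macrophage markers 5 fell (4712 to 5063 against 2027 to 2103 CPM), with Clec4f, Timd4 and Vsig4 of Kupffer cells under 1 CPM in every library. Csf1r, the receptor for colony stimulating factor, lay at −0.70. In these 4 lists 0 markers were at 0 in every library. The granulocyte precursor, mature neutrophil and cell cycle sums were 2.41, 2.47 and 2.39 times as high in fl/fl 1 as in fl/fl 2. The macrophage sum was 0.964 times as high in fl/fl 1 as in fl/fl 2. The sum of the members was 1.04 times as high, with a median log2 ratio of 0.04 between these libraries. The part of these cells in the members' values was not tested.

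Other marker lists were mostly not called. Of 8 monocyte markers 2 rose and 1 fell (Fn1, by 1.48; Plac8 lay at 0.31), and by edgeR 0 were called among the B cell, dendritic, hepatocyte, endothelial and erythroid markers, with 0, 3, 1, 0 and 3 at an unadjusted p under 0.05. Gzma and Nkg7, of cytotoxic lymphocytes, rose in fl/fl to 12.1 and 20.3 CPM at most, while Cd3e, Cd3g, Cd4, Cd8a, Ncr1 and Trac were under 1 CPM in every library. Hepatocyte markers summed to 38.0 to 61.8 CPM in wt/wt and 22.3 to 90.9 in fl/fl, endothelial and stellate markers to 14.7 to 37.3 and 17.01 to 21.02, B and plasma cell markers to 145 to 171 and 85.4 to 144, and dendritic cell markers to 322 to 340 and 176 to 265. Erythroid markers summed to 20.4 to 20.8 CPM in wt/wt and 36.7 to 95.2 in fl/fl, and monocyte markers to 9608 to 11130 and 9932 to 10770. The most expressed of these lay at 0.08 (Alb) and −0.64 (Apoa1) for hepatocytes, 0.06 (Pecam1) for endothelium, −0.41 (Ighm) and −1.69 (Jchain) for B and plasma cells, −0.62 (Bst2) and −1.27 (Cd209a) for dendritic cells, and 1.86 (Hba-a1) and 1.53 (Hbb-bs) for erythroid cells. Their part in the members' values was not tested either.

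Members have short transcripts, and fold changes in these libraries moved with length. The median exonic length was 2533 bases for the tested members and 4002 for all tested genes. With all tested genes in 5 equal groups by length, the median log2 fold change was 0.12 in the shortest group (56 to 1972 bases) and −0.09 in the longest. All 30 members of the shortest group had a positive value, with a median of 0.36, and 15 of 20 members in the next group, with a median of 0.24 beside 0.08 for all genes there. With a smooth trend on length removed from all genes, the median was 0.18 for the large and 0.24 for the small subunit, with 42 of 48 and 24 of 29 members positive.

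**Figure D5:**
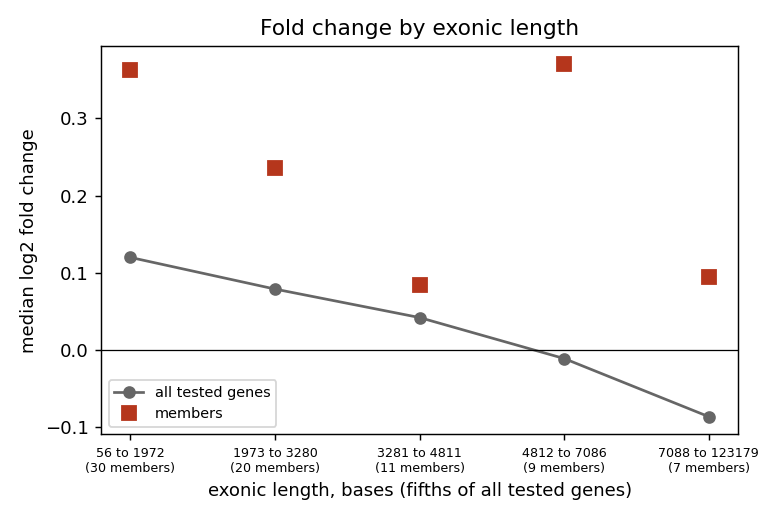
Median log2 fold change by exonic length, for all tested genes in 5 equal groups (line) and for the members in each group (squares). The line falls from 0.12 to −0.09, and the members' medians lie above it in each group, with 30 members in the shortest group and 7 in the longest.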

How the data were processed

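Counts of poly(A) RNA-seq reads per Ensembl gene were deposited by the authors as 1 table for 4 libraries, as whole numbers with no normalization. The submitters' processing notes name GRCm38, STAR 2.5.0, Trimmomatic 0.33 and FastQC 0.11.5. How reads were counted, with which annotation and whether by strand, is not given in the sources used here. GENCODE M21 (GRCm38) gave symbols for 55227 of 55487 identifiers. In R 4.3.3 with edgeR 4.0.16, filterByExpr (minimum count 10) kept 13496 of the 22696 genes that had a count. Libraries were scaled by TMM, and genotype was tested by quasi-likelihood F with no covariate. P-values are two-sided and Benjamini-Hochberg adjusted over all tested genes. Each SE was obtained by dividing the log2 fold change by the root of F, and 95% intervals from the t quantile. With 2 libraries against 2, an exact permutation test cannot go below p = 0.333. The fit was tested on simulated data. Members, lists and motifs were chosen with earlier results of these data known. Named were, in each subunit, the 5 members of largest positive and 5 of most negative log2 fold change, the 4 highest and 2 lowest per kilobase, members not tested, the S18 paralogs, Mrps30, Mrps36 and the subunits with other symbols, and from each other list the 3 genes of smallest p or the 2 most expressed markers (Col3a1, not tested, is left out, and 1 marker is not reported here). Exceptions are Mrpl48, Mrpl43, Mrpl45, Mrpl57, Mrps25, and genes of the gate, cell type markers at low levels and promoter partners, named after their values were seen. Kinase genes with Rps6k symbols were left out of the cytosolic ribosomal list. Alternatives were other scalings and filters, DESeq2 1.42.0, limma-voom (limma 3.58.1), the replicate number as a block, each library left out, and subunits by structure. Removal of a length trend, and of members with over 10% exonic overlap, were added after seeing the data.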

Additional observations from a re-analysis of the deposited data

How the results depend on the processing

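Over all genes, 790 calls became 2088 without a filter, 1507 with DESeq2, 1215 with the replicate number as a block, and 0 to 1477 with each library left out (0 without wt/wt 1 and 0 without wt/wt 2, 977 without fl/fl 1 and 1477 without fl/fl 2). Of the large subunit members, 4 were called without a filter (Mrpl58, Mrpl11, Mrpl51 and Mrpl18), 2 by DESeq2, 2 with the replicate block (Mrpl58 and Mrpl51), and 0 to 1 with a library left out. Of the small subunit members, 2 were called without a filter (Mrps18c and Mrps30), and 0 to 1 with a library left out. In the 10 pathway lists together, marker lists not included, 6 calls became 16 without a filter, 11 with DESeq2 and 0 to 6 with a library left out. The labels do not say that replicate numbers pair the libraries, and deviations of same-numbered libraries correlated at 0.02, so the block is no part of the reported fit. The median was 0.2024 to 0.3459 for the large and 0.2306 to 0.3896 for the small subunit with a library left out, lowest without fl/fl 1 in both. With the length trend removed the medians were 0.1844 and 0.24, and without members that overlap other genes that of the small subunit was 0.2841. Both medians were positive in every alternative run. The sign of genes near 0 was not stable: with a library left out it turned in 13 of 48 large and 10 of 29 small subunit members, and positive values numbered 36 to 43 and 20 to 26. Mrpl38 lay at −0.0022 with RLE size factors, −0.01 with the upper quartile, −0.0054 with the stricter filter and −0.0013 with DESeq2, and Mrps2 at 0.0026 with the replicate block. For the genes under the naming rule and Ptcd3 that turned, the ranges with a library left out were −0.1817 to 0.0456 for Mrpl30, −0.066 to 0.0607 for Mrpl38, −0.1879 to 0.2809 for Mrpl47, −0.2818 to 0.1583 for Mrpl50, −0.1111 to 0.152 for Mrpl52, −0.2491 to 0.3915 for Mrpl54, −0.196 to 0.1032 for Mrps18a, −0.3257 to 0.2908 for Mrps2, −0.2409 to 0.289 for Mrps22, −0.3792 to 0.097 for Mrps31, −0.5768 to 0.1333 for Mrps34 and −0.2578 to 0.2076 for Ptcd3. The 12 other members that turned lay between −0.334 and 0.565. The cause was not tested.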
